A study of Rattus norvegicus with 8 samples.

Results

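The genes of immature neurons and of neurogenesis were followed in the hippocampus of rats given fluoxetine after birth. The 9 genes listed were Dcx, Sox11, Sox2, Neurod1, Neurod2, Nes, Mki67, Top2a and Pcna, and each was followed through the array probes that carry its gene name, whatever their signal. Of the 9 genes 8 had a probe, with 1 probe each, among 12549 gene symbols and unnamed probes on the array. Sox2 was not analysed here. The 8 samples were whole hippocampal tissue of 2-month-old rats, each on 1 single-colour Agilent array. The 4 PNFLX samples came from rats that received 10 mg/kg of fluoxetine as pups, a drug that blocks the serotonin transporter. The 4 control samples came from rats that received the vehicle, 5% sucrose. The treatment protocol gives postnatal days 2 to 21 for both groups, while the sample descriptions give end days of 25 to 28 for the PNFLX samples and 21 to 24 for the control samples, one day later with each sample. The protocol is followed here. Strain and sex are not given in the sources used here. The labels number the samples within a group without saying that each is a separate animal, so each p-value rests on the spread from sample to sample, whatever its source, and precision is limited by 4 arrays a group.

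New granule neurons form in the dentate gyrus of the hippocampus throughout life in rodents. Stem cells that contain the filament protein nestin divide, their daughters pass through cycling progenitors, and the new neurons switch on transcription factors of the NeuroD and SoxC families and the microtubule-binding protein doublecortin. Doublecortin and Sox11 then disappear as the neuron matures, which is why both serve as markers of young neurons.

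Each member was read by 1 probe of 60 bases. The probes of Dcx and Sox11 are shown because these were the members whose groups did not overlap, and those of Pcna and Neurod1 because PNFLX 4 was the highest array for both. The sequences are those of the deposited array files, 5′ to 3′, in lower case throughout because no part of them is singled out.
Dcx: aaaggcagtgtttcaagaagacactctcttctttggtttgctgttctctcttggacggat
Sox11: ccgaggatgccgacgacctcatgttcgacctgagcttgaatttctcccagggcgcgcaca
Pcna: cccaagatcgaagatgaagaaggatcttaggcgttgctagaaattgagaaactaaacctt
Neurod1: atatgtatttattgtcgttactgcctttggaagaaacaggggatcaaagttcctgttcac
On rn4, the build named in the files, the Dcx probe lies at chrX:34725493-34725548 on the plus strand, a span of 56 bases. The Sox11 probe lies at chr6:45145224-45145283, the Pcna probe at chr3:119914570-119914629 and the Neurod1 probe at chr3:62121479-62121538, all on the minus strand. The Nes probe lies at chr2:180010769-180010828 on the plus strand. The Mki67 probe at chr1:195464455-195464514, the Top2a probe at chr10:87785829-87785888 and the Neurod2 probe at chr10:87112339-87112398 lie on the minus strand. Exons and introns were not assigned. The Sox11 probe had the highest GC content of the 8, the Dcx probe had 43.3%, and the others lay between 36.7% for Top2a and 55.0% for Nes.

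Levels are given as log2 of the processed signal relative to the 75th percentile of the same array, so a value of 0 stands for that percentile. PNFLX 2 had the highest percentile, 941, and control 4 the lowest, 654. The share of the 15207 probes well above background ran from 70.5% to 77.9% over the arrays, and any pair of arrays correlated at 0.949 to 0.983. The spots of an array stand in 192 rows and 82 columns. All 8 arrays were on 1 slide, the PNFLX samples in its second row of arrays and the controls in its first, so the place on the slide and the group cannot be told apart. Of markers fixed for mature hippocampal neurons, 7 of 9 had a probe and all 7 were well above background on at least 4 arrays, the synaptic genes Snap25, Syn1 and Slc17a7 and the granule neuron gene Calb1 among them. In whole tissue, fewer cells of a type and less RNA per cell cannot be told apart.

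A probe was kept when at least 4 arrays had it well above background. Of the 7 member probes kept, none passed an adjusted p of 0.05 in the limma fit over all 11600 kept probes, where 0.672% passed, 0.371% higher and 0.302% lower in PNFLX. At an unadjusted p of 0.05, 2 of the 7 passed, Dcx and Sox11, against 12.5% of all probes, 5.09% higher and 7.4% lower in PNFLX. These were also the 2 members whose PNFLX and control samples did not overlap, against 10.7% of all probes, 4.33% with PNFLX higher and 6.41% with PNFLX lower. The log2 difference was above 0 for 6 of the 7 and below 0 for 1, with a median of 0.36, beside a median of -0.03 and 45.5% of probes above 0 over all 11600. When the arrays were left unscaled, a change that shifted all probes by 0.30 in the median, 7 of the 7 were above 0 with a median of 0.66, and in raw mean signal 3 were. With row medians subtracted, 4 of the 7 were above 0 and the median was 0.06, and with normexp 4 were and it was 0.02. Without control 3 the median was 0.19, with 5 above 0. With Dcx and Sox11 set aside, the groups overlapped for each of the other 5, whose median difference was 0.33. The plot of the member probes on all 8 arrays shows these values.

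**Figure D1:**
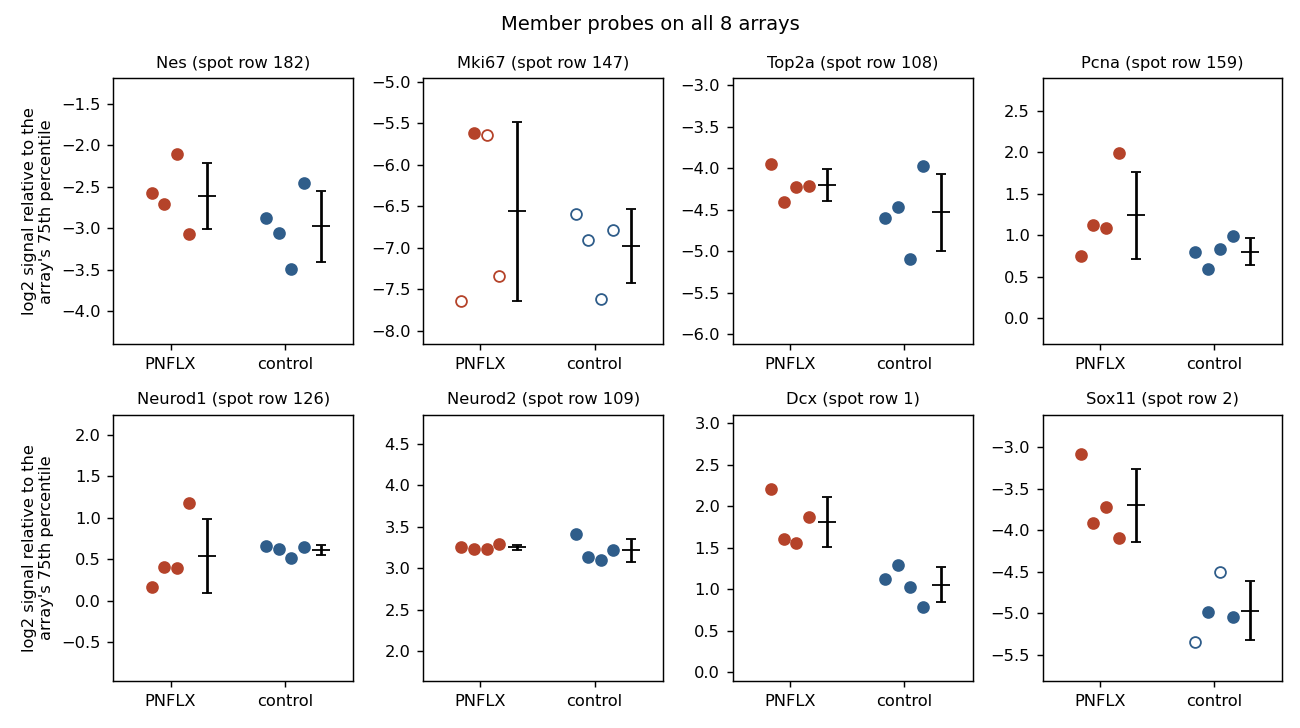
Each panel gives 1 probe, with log2 signal relative to the array's 75th percentile on the vertical axis, PNFLX samples on the left and control samples on the right (n = 4 each). Filled points were well above background and open points were not, and bars are the mean ± SD. Only the Dcx and Sox11 panels show groups that do not overlap, and Pcna and Neurod1 each have 1 high PNFLX array.

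Doublecortin, encoded by Dcx, binds and stabilises microtubules in migrating and differentiating neurons. Its processed signal was 4229, 2849, 2550 and 3405 on PNFLX arrays 1 to 4 and 1535, 2146, 1547 and 1135 on control arrays 1 to 4. All 4 PNFLX arrays were above all 4 control arrays. On the log2 scale Dcx averaged 1.80 ± 0.30 in PNFLX and 1.05 ± 0.21 in control (SD, n = 4 each), a difference of 0.75 (SE 0.19, 1.68-fold) that did not pass in limma (adjusted p = 0.143). Leaving out 1 array at a time moved the difference between 0.62 and 0.83.

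Before the authors' background subtraction and detrending, the mean brightness of the Dcx spot was 2423, 2517, 2613 and 3228 on the PNFLX arrays and 993, 1196, 968 and 640 on the control arrays. These groups did not overlap either, and stood further apart, with a log2 difference of 1.23 after scaling to the 75th percentile of raw brightness (SE 0.15, limma adjusted p = 0.00284). In that setting 3.88% of all probes passed, 1.94% with PNFLX higher. The detrending factor by which the background-subtracted brightness was divided was 0.561, 0.864, 1.00 and 0.935 for this spot on the PNFLX arrays and 0.614, 0.535, 0.587 and 0.520 on the control arrays. PNFLX 1 was therefore corrected by about as much as the controls, and the other 3 PNFLX arrays by less.

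Sox11 is a transcription factor of the SoxC family that is active in newly born neurons and drives genes of early neuronal differentiation, Dcx among them. Its processed signal was dim, with 109, 62.7, 66.2 and 54.2 on PNFLX arrays 1 to 4 and 17.4, 27.9, 33.7 and 19.7 on control arrays 1 to 4. The spot stood well above background on each PNFLX array and on 2 control arrays, and the groups did not overlap. The log2 level was -3.70 ± 0.44 in PNFLX and -4.97 ± 0.35 in control (SD, n = 4 each), a difference of 1.27 (SE 0.26, 2.41-fold) with a limma adjusted p of 0.0893. The difference stayed between 1.06 and 1.42 when 1 array at a time was left out. In mean brightness the spot had 112, 110, 126 and 95.0 on the PNFLX arrays and 60.9, 63.5, 81.9 and 61.8 on the control arrays, again without overlap. The scaled difference there was 0.43 (SE 0.15, limma adjusted p = 0.160), smaller than in processed signal. Mean brightness still holds the background, so differences of dim spots on the 2 scales are not like for like.

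**Figure D2:**
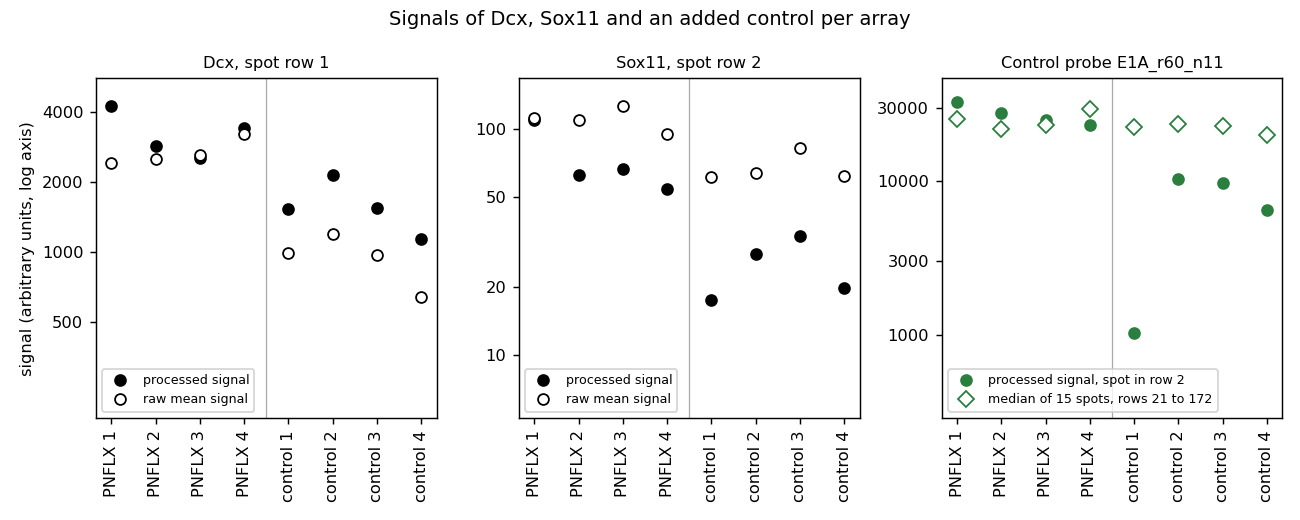
The signal of the Dcx spot, the Sox11 spot and an added control probe is plotted on a log axis in arbitrary units for each of the 8 arrays, PNFLX left of the vertical line and control right of it. Black filled points are processed and open points raw mean signals, and in the right panel green filled points are the control spot in row 2 and diamonds the median of its 15 spots in rows 21 to 172. All 3 spots of the outer rows are higher on every PNFLX array, while the inner spots of the control probe overlap between groups.

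Both probes stood at the outer edge of the array, Dcx in spot row 1, column 44, and Sox11 in spot row 2, column 48. Of the 100 kept probes in these 2 rows, members included, 92% had a difference above 0, 53% had groups that did not overlap with PNFLX higher, and 27% passed the adjusted p on the higher side, against 0.371% of all kept probes. Among the other 48 kept probes of row 1 the median difference was 1.31 (quartiles 0.70 to 2.37), 44 were higher in PNFLX and 35 had a larger difference than Dcx. Among the other 50 kept probes of row 2 the median difference was 1.29 (quartiles 0.73 to 2.18), 46 were higher in PNFLX and 27 had a larger difference than Sox11. The difference of Dcx was thus 0.56 below the median of its row, and that of Sox11 was 0.02 below. In raw mean brightness, with the background still in it, 20 of the 48 exceeded Dcx and 39 of the 50 exceeded Sox11. In spot rows 21 to 172, with 9310 kept probes, the median difference was -0.05 and the quartiles were -0.24 and 0.15.

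Relative to its mean over all 8 arrays, the median probe of row 1 stood at 0.97, 0.83, 0.92 and 0.32 on the PNFLX arrays and at -0.92, -0.56, -0.50 and -1.25 on the control arrays. Dcx stood at 0.77, 0.17, 0.12 and 0.44 on the PNFLX arrays and at -0.31, -0.14, -0.41 and -0.63 on the control arrays. Both row and gene separated the groups. PNFLX 1 was the highest PNFLX array and control 4 the lowest control for both. The orders within a group otherwise differed. Among PNFLX arrays the row was lowest on PNFLX 4 and Dcx on PNFLX 3, and the highest control was control 3 for the row and control 2 for Dcx. The median of row 2 stood at 1.14, 0.76, 0.66 and 0.39 on the PNFLX arrays and at -0.97, -0.39, -0.56 and -0.98 on the control arrays. Sox11 stood at 1.25, 0.43, 0.62 and 0.23 on the PNFLX arrays and at -1.01, -0.64, -0.17 and -0.72 on the control arrays. Again both separated the groups. PNFLX 1 was the highest and PNFLX 4 the lowest PNFLX array for both, while the highest control was control 2 for the row and control 3 for Sox11.

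A probe for RNA added in a fixed amount, E1A_r60_n11, which reads no rat gene, had 20 spots on each array. Its spot in row 2 gave 32513, 27538, 24812 and 23056 on the PNFLX arrays and 1024, 10218, 9692 and 6456 on the control arrays. The groups did not overlap, and the log2 difference was 2.11 in scaled processed signal and 3.01 in raw brightness. The median of its 15 spots in rows 21 to 172 was 25232, 21770, 23180 and 29227 on the PNFLX arrays and 22244, 23468, 22829 and 19771 on the control arrays. Their differences lay between -0.21 and 0.37, with a median of -0.03. Another added control, E1A_r60_n9, was less even at spots well above background on all arrays. It differed by 1.8 in row 11, 0.84 in row 36, -0.68 in row 172 and -3.1 in row 181. Its other such spots in rows 21 to 172 lay between -0.27 and 0.63. The 5 bright corner control spots in rows 1 and 2 differed by 1.57 to 2.27, with groups that overlapped. At the opposite edge the 7 control spots of rows 191 and 192 differed by -3.87 to 0.02, with a median of -1.59. The part of the spot row in the results for Dcx and Sox11 was not tested further than by the settings that follow.

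**Figure D3:**
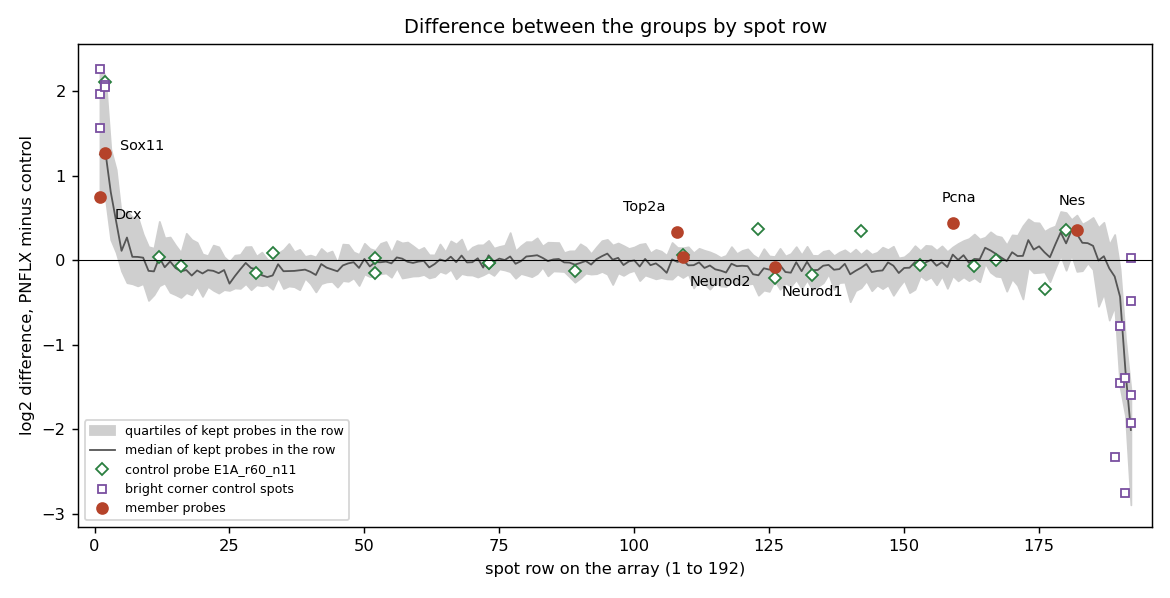
The log2 difference, PNFLX minus control, is plotted against the spot row, with the median and quartiles of the kept probes of each row as a line and a grey band. Open symbols are the spots of E1A_r60_n11 and the bright corner control spots, and red points are the 7 kept member probes. The outermost rows run upward at the left end and downward at the right end, and the Dcx and Sox11 points lie at or below the median of their rows.

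With each array's median per spot row subtracted, the Dcx difference was -0.88 (SE 0.28, limma adjusted p = 0.316) and the Sox11 difference -0.31 (SE 0.25, adjusted p = 0.680), so both changed direction. With row and column medians subtracted the differences were -1.01 (SE 0.36) for Dcx and -0.27 (SE 0.25) for Sox11. When these medians were taken over all 15207 probes, a setting chosen after seeing the data, they were -0.41 (SE 0.30) for Dcx and 0.05 for Sox11. Leaving out the first and last 5 spot rows removed both probes and left 0 of 11056 probes past the adjusted p in limma, with 1261, or 11.4%, past an unadjusted p of 0.05. Under the settings that keep the spot position as it is, the Dcx difference remained above 0 in each one run, and that of Sox11 was below 0 in normexp background correction alone, at -0.46 (SE 0.64). Without scaling between arrays, where 1.23% of all probes passed and 1.03% with PNFLX higher, the Sox11 difference was 1.56 (SE 0.28, limma adjusted p = 0.0442).

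**Figure D4:**
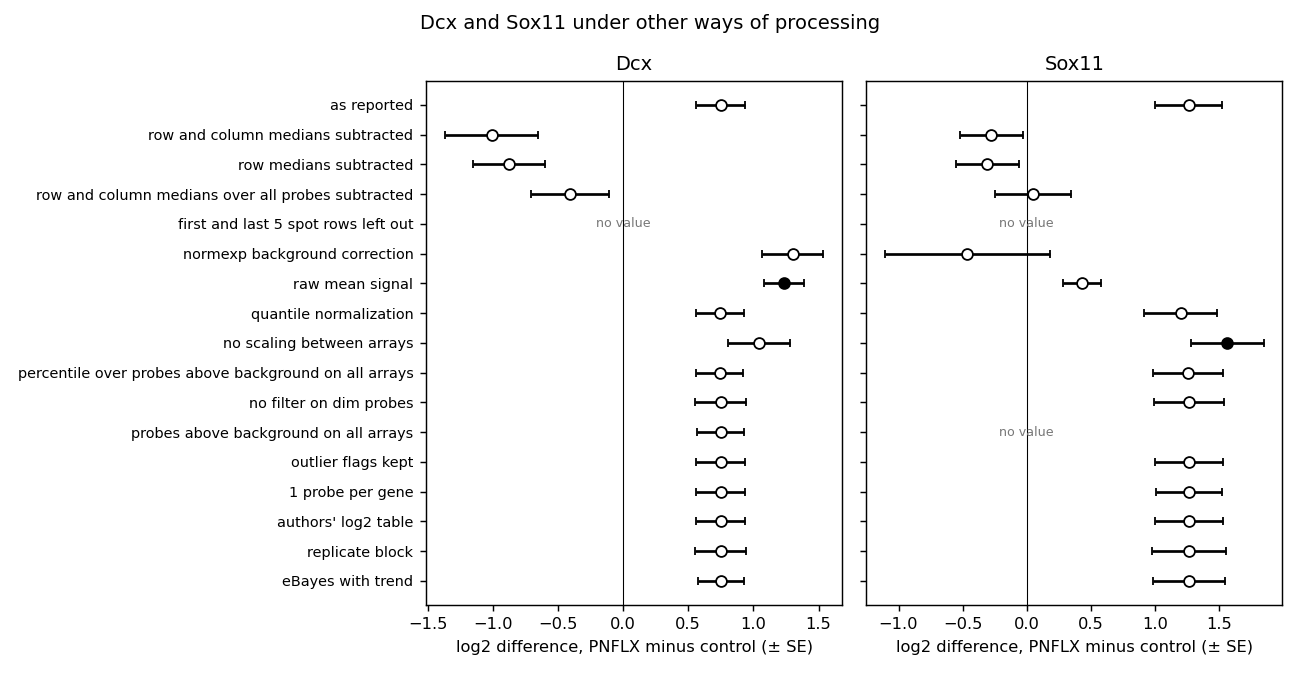
The log2 difference, PNFLX minus control, with its SE is drawn for Dcx on the left and Sox11 on the right under each way of processing, with filled points where the limma adjusted p was under 0.05. Subtracting row medians moves Dcx to -0.88 and Sox11 to -0.31, and the only filled points are Dcx in raw mean signal and Sox11 without scaling between arrays.

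The probes whose levels followed Dcx most closely over the 8 arrays were Slc30a6, a zinc transporter, in spot row 3 (Pearson r = 0.980), Adnp in row 3 (r = 0.964) and Eri3 in row 2 (r = 0.963). For Sox11 they were Polr2f, a subunit of RNA polymerases, in row 2 (r = 0.978), Grlf1-ps1 in row 2 (r = 0.966) and Rasgrp4 in row 35 (r = 0.964). Of the 100 probes most like each gene, 35 for Dcx and 42 for Sox11 came from rows 1 to 5, which hold 225 of the 10658 probes compared. The points share the arrays and, for 5 of these 6 probes, the edge of the array, so the correlations are given as a description.

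The NeuroD factors are basic helix-loop-helix proteins. Neurod1 is needed for granule neurons of the dentate gyrus to form and survive, and Neurod2 acts in maturing excitatory neurons and remains on in adult ones. Neurod1, in spot row 126, had a processed signal of 1029, 1253, 1143 and 2119 on PNFLX arrays 1 to 4 and 1120, 1355, 1095 and 1026 on control arrays 1 to 4. The groups overlapped and PNFLX 4 alone was high. That array held the highest value of 22% of all kept probes, while the others held from 3.42% (PNFLX 2) to 18.3% (PNFLX 3). The part of the array in the Neurod1 value was not tested. The gap from PNFLX 4 to the next PNFLX array was 0.751 of the group's range for Neurod1 and 0.699 for Pcna. Both lay under the 95% critical value of Dixon's test for 4 samples. The log2 level was 0.54 ± 0.45 in PNFLX and 0.61 ± 0.07 in control (SD, n = 4 each), a difference of -0.08 (SE 0.22, limma adjusted p = 0.900). Without PNFLX 4 it was -0.29 (SE 0.11, adjusted p = 0.354), and without PNFLX 1 it was 0.05.

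Neurod2, in spot row 109, had 8864, 8828, 8193 and 9116 on the PNFLX arrays and 7524, 7773, 6565 and 6095 on the control arrays. These processed signals did not overlap, but relative to each array's 75th percentile they did, and the SD among the PNFLX arrays was 0.03. The log2 level was 3.25 ± 0.03 in PNFLX and 3.22 ± 0.14 in control (SD, n = 4 each), a difference of 0.03 (SE 0.12, limma adjusted p = 0.926). The medians of the other probes in their rows were -0.10 for Neurod1 and 0.00 for Neurod2.

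Among the genes of dividing cells, Pcna encodes the sliding clamp that holds DNA polymerase on its template. Its processed signal was 1554, 2055, 1855 and 3716 on PNFLX arrays 1 to 4 and 1230, 1321, 1367 and 1296 on control arrays 1 to 4. The unscaled PNFLX signals all lay above the control ones, with PNFLX 4 far above the rest, while after scaling the groups overlapped. The log2 level was 1.24 ± 0.53 in PNFLX and 0.80 ± 0.17 in control (SD, n = 4 each), a difference of 0.44 (SE 0.26, 1.35-fold, limma adjusted p = 0.522). Without PNFLX 4, the array that was also high for Neurod1, the difference was 0.19 (SE 0.15). Pcna stood in row 159, where the median of the other 55 kept probes was 0.05 and 4 of them had a larger difference.

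Top2a encodes DNA topoisomerase II alpha, which untangles chromosomes in dividing cells. Its processed signal was 59.6, 44.2, 46.6 and 50.1 on the PNFLX arrays and 29.1, 39.7, 22.4 and 41.8 on the control arrays. On this scale the lowest PNFLX value lay just above the highest control value, and relative to the 75th percentile the groups overlapped. The log2 level was -4.20 ± 0.19 in PNFLX and -4.53 ± 0.46 in control (SD, n = 4 each), a difference of 0.33 (SE 0.24, limma adjusted p = 0.592). Without control 3 it was 0.14, and without control 4 it was 0.52. In raw mean signal, with the background still in it, the difference was -0.0049, and with normexp it was -0.69 (SE 0.59). In its row, 108, the median of the other 65 kept probes was -0.03 and 6 had a larger difference.

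Mki67, the gene of the Ki-67 antigen found in the nuclei of cycling cells, was at the limit of the array. Its processed signal was 4.6, 19.2, 17.5 and 5.8 on the PNFLX arrays and 7.3, 7.3, 3.9 and 5.9 on the control arrays, and it was well above background on PNFLX 2 alone. The groups overlapped and no fold is given, since the PNFLX mean lay below the lowest level counted as above background in controls. The measured log2 level was -6.56 ± 1.08 in PNFLX and -6.98 ± 0.45 in control (SD, n = 4 each), and limma without the filter on dim probes gave an adjusted p of 0.834.

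Nes encodes nestin, the intermediate filament protein of neural stem cells. Its processed signal was 156, 144, 204 and 111 on PNFLX arrays 1 to 4 and 96.0, 106, 68.1 and 119 on control arrays 1 to 4. PNFLX 4 lay below control 4, so the groups overlapped. The log2 level was -2.61 ± 0.40 in PNFLX and -2.97 ± 0.43 in control (SD, n = 4 each), a difference of 0.36 (SE 0.27, 1.28-fold, limma adjusted p = 0.607). It was 0.19 without PNFLX 3, 0.19 without control 3 and 0.53 without control 4. Nes stood in row 182, near the far edge, where the median of the other 54 kept probes was 0.31 and 24 of them had a larger difference. In raw mean signal Nes was 153, 152, 211 and 116 on the PNFLX arrays and 153, 175, 123 and 141 on the control arrays. Its scaled difference there, with the background still in it, was -0.23 (SE 0.20).

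Other genes of the same path were described from lists chosen with earlier results of these data known. Of 20 genes of stem cells and progenitors, 19 had a kept probe, of which 7 were higher in PNFLX and 12 lower, with a median difference of -0.07. Of 26 genes of intermediate progenitors and immature neurons, 23 had a probe and 17 a kept one, with 5 higher, 12 lower and a median of -0.14. Of 45 cell cycle genes, 42 had a probe and 33 a kept one, with 18 higher, 15 lower and a median of 0.02. None of the 3 lists had a member past the adjusted p in limma, while 6, 0 and 3 members passed an unadjusted p of 0.05, in the order the lists are named. Over all kept probes 12.5% passed that unadjusted p in limma, 45.5% had a difference above 0 and the median was -0.03.

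Among stem cell genes the smallest p belonged to Id4, an inhibitor of basic helix-loop-helix factors in quiescent stem cells and astrocytes. Its log2 level was -0.58, -0.45, -0.54 and -0.25 in PNFLX and 0.01, 0.15, -0.19 and -0.15 in control, in spot row 26. The groups did not overlap, with a difference of -0.41 (SE 0.14, limma adjusted p = 0.287), where the kept probes of row 26 had a median of -0.19. Id1, a related inhibitor, had -6.15, -2.08, -0.30 and -1.51 in PNFLX and 0.71, 0.09, 0.20 and 0.45 in control. Its spot stood in row 188, among the last 5 rows, where the kept probes had a median difference of -0.10 (quartiles -0.71 to 0.18). The groups did not overlap, with a difference of -2.88 (SE 1.09, adjusted p = 0.335), and 3 of the 4 PNFLX spots were well above background. Hopx, found in radial stem cells of the dentate gyrus, differed by 0.72 (SE 0.29, adjusted p = 0.376), from 3 PNFLX arrays because the spot of PNFLX 4 was left out as an outlier.

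Among genes of intermediate progenitors and immature neurons, Igfbpl1 differed by -0.43 (SE 0.21, limma adjusted p = 0.444) and Bhlhe22 by -0.87 (SE 0.44, adjusted p = 0.467). Neurog2, a factor of progenitors of excitatory neurons, differed by 0.50 (SE 0.30, adjusted p = 0.530). Dpysl3, a protein of growing axons, differed by -0.26 (SE 0.16, adjusted p = 0.545). The groups overlapped for each of these 4 probes. None stood in the first or last 5 spot rows. The nearest relatives of the immature neuron members on the list, picked after their values were seen, are Sox4, the SoxC partner of Sox11, and Dclk1, a kinase related to doublecortin. Sox4, in row 157, differed by -0.11 (SE 0.20, adjusted p = 0.833), and Dclk1, in row 151, by 0.18 (SE 0.17, adjusted p = 0.682).

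Among cell cycle genes, Tyms, which makes thymidylate for DNA synthesis, had a log2 level of -4.10, -4.19, -3.66 and -3.81 in PNFLX and -4.25, -4.67, -4.64 and -4.46 in control. The groups did not overlap, with a difference of 0.56 (SE 0.17, limma adjusted p = 0.229). Its spot lay in row 180, close to that of Nes. The kept probes of row 180 had a median difference of 0.20 and an upper quartile of 0.56. Mcm6, a subunit of the replicative helicase, had -3.31, -3.35, -3.54 and -4.27 in PNFLX and -2.98, -3.10, -3.02 and -3.26 in control. The groups did not overlap there either, and the difference had the opposite sign, -0.53 (SE 0.22, adjusted p = 0.384). The kept probes of its row, 32, had a median of -0.20. Cdc20, an activator of the anaphase-promoting complex, differed by -0.67 (SE 0.28, adjusted p = 0.369). The checkpoint kinase gene Bub1b differed by -0.94 (SE 0.45, adjusted p = 0.442) and was well above background on 2 PNFLX and 3 control arrays. Genes of dividing cells thus had differences of either sign, and the test passed none of them.

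Markers of other cells in the dissected tissue were read in the same way, and no marker passed the adjusted p in limma, while 2 blood, 2 meningeal and 1 mature neuron marker passed an unadjusted p of 0.05. The kept lists held 4, 7 and 7 markers, and 12.5% of all kept probes passed at that p. Blood markers were higher in PNFLX for 4 of 4 kept probes (median 0.27), and their summed linear signal relative to the 75th percentile ranged from 0.954 to 2.38 in PNFLX and from 1.07 to 1.23 in control. Markers of meninges and fibroblasts were higher for 6 of 7 (median 0.25), with sums of 17.0 to 40.7 in PNFLX and 13.7 to 17.6 in control. Relative to its mean over the 8 arrays, the median marker of this list stood at 1.36 on PNFLX 1. It stood at 0.00 to 0.28 on the other PNFLX arrays and at -0.36 to 0.15 on the control arrays. Oligodendrocyte markers were higher for 1 of 7 (median -0.27), with sums of 48.9 to 77.5 in PNFLX and 66.4 to 82.8 in control. Choroid plexus and ependymal markers were higher for 1 of 5 (median -0.26), with sums of 1.34 to 4.01 in PNFLX and 1.37 to 36.5 in control. On the same scale their median marker stood at 1.96 on control 4. It stood at -0.57 to 0.01 on the other control arrays and at -0.62 to 0.56 on the PNFLX arrays. The sums overlapped between groups in each of these lists, and their part in the members' values was not tested.

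The other lists lay nearer to the median of all probes. Markers of mature neurons were higher in PNFLX for 4 of 7 (median 0.04), of astrocytes for 3 of 7 (median -0.05), of oligodendrocyte precursors for 3 of 6 (median -0.02), of endothelium for 3 of 7 (median -0.10) and of microglia for 2 of 8 (median -0.17). Calb1, the calcium-binding protein of mature granule neurons, had -0.91, -0.60, -0.72 and -0.73 in PNFLX and -1.08, -1.05, -1.30 and -0.96 in control. The groups did not overlap, with a difference of 0.36 (SE 0.13, limma adjusted p = 0.332).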

How the data were processed

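Total RNA of 8 samples of whole hippocampal tissue, 4 PNFLX and 4 control, was read on custom rat arrays after Cy3 labelling, per the labels' protocols. The deposited intensity values (processed signal, raw mean brightness, local background) came from the authors' run of Agilent Feature Extraction 10.5.1.1, with spatial and multiplicative detrending and surrogate values for low signals, per the file headers. They were not normalized between arrays. The log2 table deposited by the authors matched, within 0.00242, log2 processed signal scaled to the 75th percentile of each array and then centred by probe on the median. Its column medians were -0.04, -0.07, 0.10 and -0.13 for PNFLX 1 to 4 and 0.06, -0.05, 0.04 and 0.04 for control 1 to 4, and its direction follows from that match.

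From the scanner files, log2 processed signal minus the 75th percentile of the 15207 probes that are not controls was used. Outlier-flagged spots (521) were dropped, and the 11600 probes well above background on at least 4 arrays were kept, each on its own. The comparison of the groups used limma 3.58.1 (R 4.3.3; lmFit and eBayes, Benjamini-Hochberg over the 11600, threshold 0.05), so each adjusted p comes from limma, and SE is the moderated standard error. The fit was also run on simulated data, drawn for each probe on its own and without differences by spot row. That run therefore cannot speak for the fit in the outer spot rows. RefSeq names (assembly GRCr8, names only) were found for 14323 probes.

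The members and lists were chosen with earlier results of these data known. Named were each member probe, up to 4 genes of smallest p in each other list, and the 3 probes most correlated with Dcx and with Sox11. A gene that this rule selects is not reported here. Of a listed gene's several probes the brightest was taken. Slc1a3 stood on both the stem cell and the astrocyte list. Alternatives covered the spot position, the background, the scaling, the filters, the replicate block and each array left out.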

Additional observations from a re-analysis of the deposited data

How the results depend on the processing

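The count of probes past the adjusted p was 78, and under other settings it was 27 with row and column medians subtracted, 30 with row medians, 24 with both medians taken over all probes (chosen after seeing the data), 0 of 11056 with the first and last 5 spot rows left out (1261 at an unadjusted p of 0.05 in limma), 50 with normexp, 450 in raw mean signal, 143 without scaling, 46 without the filter on dim probes, 47 with probes above background on all arrays, 48 with 1 probe per gene, and 33 to 104 with 1 array left out. It lay between 69 and 99 under the other 5 settings. The count of member probes past it was 0, and 1 in raw mean signal (Dcx, 1.23) and 1 without scaling (Sox11, 1.56, SE 0.28, adjusted p = 0.0442), and 0 to 0 with 1 array left out. Normexp moved the median of all probes by -0.35 and the lack of scaling by 0.30. Dcx reversed to -1.01 with row and column medians, -0.88 with row medians and -0.41 with medians over all probes, and Sox11 to -0.27 with row and column medians, -0.31 with row medians and -0.46 with normexp. Nes was -0.70 with normexp and -0.23 in raw mean signal, Top2a was -0.69 and -0.0049 there, and Neurod2 was -0.0039 in raw mean signal. Neurod1 was 0.023 with normexp and 0.22 without scaling. With 1 array left out, Neurod1 ranged from -0.29 to 0.05 (0.048 without PNFLX 1) and Neurod2 from -0.0055 to 0.10. The cause of these changes was not tested. Over all settings the adjusted p ranged from 0.00284 to 0.689 for Dcx and from 0.0442 to 0.972 for Sox11. Sox11 had no value with probes above background on all arrays.

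PNFLX and control samples share replicate numbers, but the deviations of same-numbered samples correlated at 0.008, 0.084, 0.092 and 0.022, so the numbers were not taken as pairs, and 2 of 4 PNFLX samples correlated best with the control of their own number. With the replicate block the count was 13, and no member passed (Dcx adjusted p = 0.306, Sox11 adjusted p = 0.261).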
